A study of Mus musculus with 14 samples.

Results

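Collagen chain genes encode the polypeptides that wind into triple-helical collagen molecules, the main structural proteins of the extracellular matrix between and around heart cells. All rows of a gene-level mouse ventricle RNA-seq table whose symbol has the form Col, a number, the letter a and a number were taken, which gave 44 collagen genes of the 24972 genes listed. They were ordered by the assembly their chains form, as 11 fibrillar, 6 basement membrane, 3 network, 6 beaded filament and 9 FACIT chains (fibril-associated collagens with interrupted triple helices) and 9 other collagens. The rule used symbols and textbook classes and no measured value, but it was chosen with earlier results of these data known.

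The study asked what JP2NT, an N-terminal fragment of junctophilin-2 delivered by a viral vector, does in pressure-overloaded hearts; junctophilin-2 tethers the transverse tubules of the cardiomyocyte to its sarcoplasmic reticulum. Male C57BL/6N mice aged 9 to 10 weeks underwent sham surgery or transaortic constriction (TAC), which narrows the aorta and raises the pressure load on the left ventricle. At 2 weeks, echocardiography was used to select TAC mice with an ejection fraction of 40 to 60% and sham mice with normal function, so the TAC groups hold hearts chosen for moderate dysfunction. Both kinds of mice then received 1e12 viral genomes of AAV2/9-JP2NT or of the control virus AAV2/9-GFP through the tail vein, and ventricles were collected 6 weeks after injection, 8 weeks after surgery. The groups were 4 TAC+JP2NT, 4 TAC+GFP, 3 Sham+JP2NT and 3 Sham+GFP libraries. Every mouse thus carried an AAV2/9 vector, the promoter that drives it is not given in the sources used here, and no group without virus was analysed here. The labels do not say that each library is a separate mouse, so p-values measure the spread between these libraries.

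Each library held an estimated 8603997 to 14470210 reads in genes, and the values below are normalised read counts on 1 scale for all libraries. In the deposited values 1 read was 0.69 units in TAC+JP2NT replicate 2, the lowest, and 1.29 in Sham+JP2NT replicate 3, the highest. The joint rescaling described below divided these values by factors of 0.97 to 1.03, so a unit is not the same number of reads in every library. The variance between Sham+JP2NT replicates 1 and 2 was close to that of counting alone (observed over counting variance 1.225 over genes with at least 50 reads, where the other 17 pairs of replicates had 1.728 to 7.229). Their mean was therefore counted as 1 sample, and 13 samples entered every fit. Of the 44 collagen genes, 31 passed the filter of at least 10 units in at least 3 libraries and were tested. Col13a1 and Col9a2 passed it only through TAC libraries, so their difference from sham is partly built into the filter. The ventricle was checked against 7 cardiomyocyte markers, which summed to 624820 to 795670 units in TAC+JP2NT libraries, 546750 to 657310 in TAC+GFP libraries, 981000 to 996680 in Sham+JP2NT samples and 991480 to 1024300 in Sham+GFP libraries. Of its members Myh6 had the largest fold change under either vector, with means of 233170 units in TAC+JP2NT libraries, 169430 in TAC+GFP libraries, 486870 in Sham+JP2NT samples and 473830 in Sham+GFP libraries. In TAC+GFP against Sham+GFP 4 of the 7 markers were lower, Ttn was higher (log2 fold change 0.56, adjusted p = 0.000502), and Tnnt2 and Myl2 did not pass. In bulk tissue, fewer cells of a type and less RNA per cell cannot be told apart.

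As background, collagen chains are made mainly by fibroblasts, with basement membrane chains also made by endothelial and mural cells, and in the pressure-overloaded heart excess fibrillar collagen is the hallmark of fibrosis. Chains are hydroxylated and folded in the endoplasmic reticulum, secreted, trimmed of their propeptides outside the cell and then assembled into fibrils, sheets or microfibrils. Fibrillar collagens carry tensile load, basement membrane collagen sheathes each cardiomyocyte and vessel, type VI beaded filaments anchor cells to that fibrillar matrix, and FACIT collagens coat the fibril surface.

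Judged per length (mean normalised count per 1000 bases of the longest coding transcript), the most abundant chains were the same 3 genes in all 4 groups. Col4a1 was first, with 1398 units per kilobase in TAC+JP2NT libraries, 1774 in TAC+GFP libraries, 897 in Sham+JP2NT samples and 1149 in Sham+GFP libraries. Col4a2 and then Col3a1 followed in every group. Together the basement membrane chains made up 42.2% ± 1.95 of the per-length collagen signal in TAC+JP2NT libraries (SD, n = 4), 41.1% ± 1.76 in 4 TAC+GFP libraries, 42.9% ± 1.01 in 2 Sham+JP2NT samples and 44.2% ± 0.662 in 3 Sham+GFP libraries. The fibrillar share was 30.7% ± 0.714 in TAC+JP2NT libraries, 36.5% ± 2.59 in TAC+GFP libraries, 30.3% ± 0.030 in Sham+JP2NT samples and 29.9% ± 0.537 in Sham+GFP libraries. The TAC+GFP range of this share, 33 to 39.1%, lay above the ranges of the other groups, and the TAC+JP2NT range overlapped that of each sham group. The beaded filament share was 13.8% ± 1.04 in TAC+JP2NT libraries, 10.4% ± 1.08 in TAC+GFP libraries, 16.8% ± 0.489 in Sham+JP2NT samples and 16.6% ± 0.255 in Sham+GFP libraries, and the TAC+GFP range lay below those of all other groups. The TAC+JP2NT range of the beaded filament share, 12.6 to 14.9%, also lay below both sham ranges. These shares are descriptions and were not tested.

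Under the control virus, overload was accompanied by higher levels of most collagen genes. In TAC+GFP against Sham+GFP libraries, 18 of the 31 tested collagen genes were higher and 3 were lower at an adjusted p under 0.05 (limma, Benjamini-Hochberg over 13246 genes), whereas 23.2% of all tested genes were higher and 24.8% lower (48% in either direction). The median log2 fold change of the 31 genes was 0.63, against -0.01 over all genes. In 19 genes every TAC+GFP library lay above every Sham+GFP library, and in 3 every one lay below, beside 25.3% of all tested genes above and 27.8% below. Under JP2NT the same comparison, TAC+JP2NT against Sham+JP2NT, gave 12 higher and 1 lower, with 16.1% of all genes higher and 15.8% lower (31.8% in either direction), and a median of 0.62 against 0.00 over all genes. The 2 overload comparisons share no library: 12 genes were called in both, which is 57.1% of the 21 called under GFP and 92.3% of the 13 called under JP2NT, and 29 of 31 fold changes had the same sign. Over all genes the calls in both were 55.2% of the GFP list and 83.2% of the JP2NT list. The 13 calls under JP2NT ranged from 7 without Sham+JP2NT replicate 3 to 22 without TAC+JP2NT replicate 4. Across these 31 genes, which are not independent replicates, the fold changes had a Pearson r of 0.92 and a Spearman rho of 0.88. These correlations include Col13a1 and Col9a2, which passed the filter only through TAC libraries, and Col9a2 is counted as higher in both comparisons. No figure over all genes stands beside the sign agreement or the correlations, so they are not read as particular to collagens.

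**Figure D1:**
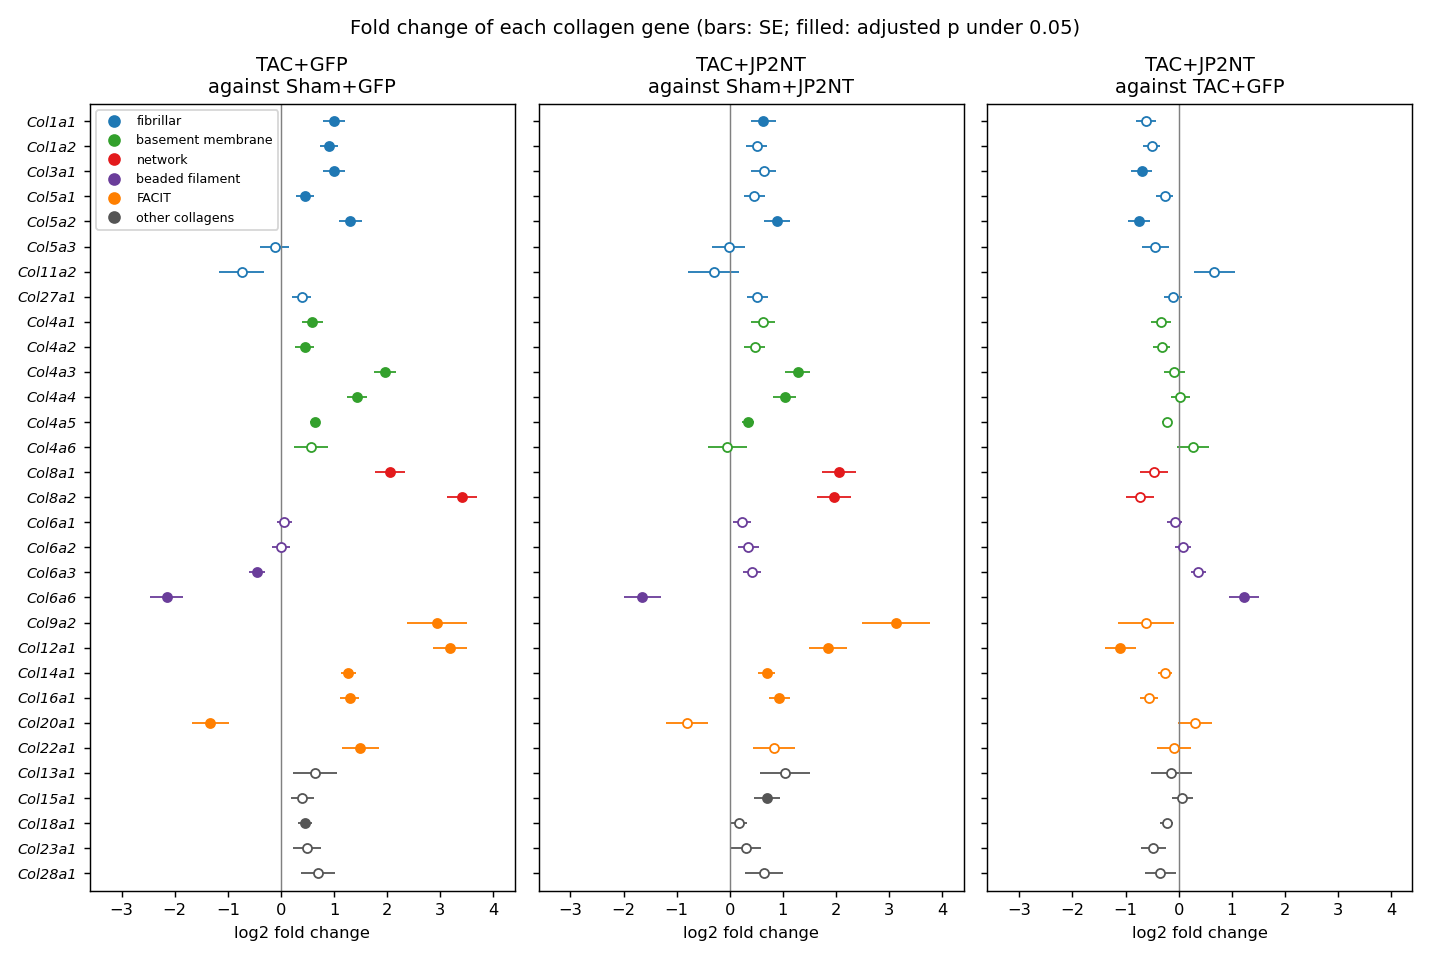
Log2 fold changes of the 31 tested collagen genes in 3 comparisons, ordered by class; points are fitted values, bars are standard errors and filled points have an adjusted p under 0.05 (limma). Col8a2 and Col12a1 lie farthest to the right in TAC+GFP against Sham+GFP, at 3.41 and 3.18, and Col6a6 farthest to the left, at -2.15.

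Fibrillar collagens rose under the control virus in 5 of 8 tested chains and fell in none (62.5% called, beside 48% of all genes). Col1a1 (chromosome 11, bases 94936224 to 94953042, plus strand), which encodes the major chain of type I collagen, the principal tensile collagen of the myocardium, had 1988, 2042, 2406 and 1236 units in TAC+JP2NT libraries and 3397, 3696, 2544 and 2120.3 in TAC+GFP libraries. Sham values of Col1a1 were 1096 and 1317 under JP2NT and 1596, 1408 and 1321 under GFP. All 4 TAC+GFP libraries lay above the 3 Sham+GFP libraries, while TAC+JP2NT replicate 4 lay within the Sham+JP2NT range. The log2 fold change was 1.00 ± 0.20 SE, adjusted p = 0.00108 in TAC+GFP against Sham+GFP and 0.63 ± 0.23 SE, adjusted p = 0.0494 in TAC+JP2NT against Sham+JP2NT. Col1a2, the partner chain of type I collagen, had 2384, 2739, 3118 and 1868 units in TAC+JP2NT libraries and 4123, 4533, 3129 and 2674 in TAC+GFP libraries. Sham values of Col1a2 were 1644 and 1866 under JP2NT and 1986, 1907 and 1797 under GFP. No TAC+GFP library overlapped Sham+GFP, and TAC+JP2NT replicate 4 lay beside the higher Sham+JP2NT sample, with a log2 fold change of 0.90 ± 0.17, adjusted p = 0.000659 under GFP and, short of the threshold, 0.50 ± 0.20, adjusted p = 0.063 under JP2NT. Col3a1 (chromosome 1, bases 45311538 to 45349706, plus strand), the single chain of type III collagen, which co-assembles with type I in distensible tissue, had 4147, 4342, 5898 and 2877 units in TAC+JP2NT libraries and 7926, 8895, 6101 and 4921 in TAC+GFP libraries. Sham values of Col3a1 were 2401 and 3016 under JP2NT and 3773, 3331 and 3100.1 under GFP. Its log2 fold change was 1.00 ± 0.21, adjusted p = 0.00136 under GFP and 0.64 ± 0.24, adjusted p = 0.0563 under JP2NT, where TAC+JP2NT replicate 4 again overlapped the sham range.

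Type V collagen nucleates type I fibrils and sets their diameter. Of its chains, Col5a2 (chromosome 1, bases 45374321 to 45503282, minus strand) had 834, 873, 1185 and 582 units in TAC+JP2NT libraries and 1666, 1938, 1202 and 1035 in TAC+GFP libraries. Sham values of Col5a2 were 405 and 513 under JP2NT and 632, 578 and 510.5 under GFP. No TAC library of either vector overlapped its own sham group, and the log2 fold change was 1.31 ± 0.22, adjusted p = 0.000231 under GFP and 0.88 ± 0.25, adjusted p = 0.0151 under JP2NT. Col5a1 averaged 858 ± 176 units in TAC+JP2NT libraries, 1033 ± 238 in TAC+GFP libraries, 614 ± 50.6 in Sham+JP2NT samples and 743 ± 76.6 in Sham+GFP libraries (SD), and its log2 fold change of 0.45 ± 0.17, adjusted p = 0.0402 under GFP was the smallest of the called fibrillar chains. Col5a3 averaged 241, 315, 228 and 333 units in the TAC+JP2NT, TAC+GFP, Sham+JP2NT and Sham+GFP groups and did not pass in any comparison; its log2 fold change under GFP was -0.12 (95% interval -0.70 to 0.47). Col27a1, a fibrillar chain of developing cartilage, averaged 71.1, 76.0, 48.6 and 57.4 units in the same order of groups, with log2 fold changes of 0.39 (adjusted p = 0.0845) under GFP and 0.52 (adjusted p = 0.0656) under JP2NT. Col11a2, a type XI chain known from cartilage, averaged 20.1, 12.9, 23.5 and 19.7 units and passed in no comparison. The Col5a1 call was lost without Sham+GFP replicate 2 (adjusted p = 0.0841) or 3 (0.147) or TAC+GFP replicate 1 (0.107) or 2 (0.120). The Col1a1 call under JP2NT was lost when any of 10 of the 13 samples was left out, with adjusted p of 0.0517 to 0.289, highest without the averaged Sham+JP2NT sample; it held without TAC+GFP replicate 2 or 4 or TAC+JP2NT replicate 4. The call of Col5a2 under JP2NT was lost without the averaged Sham+JP2NT sample (adjusted p = 0.155).

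**Figure D2:**
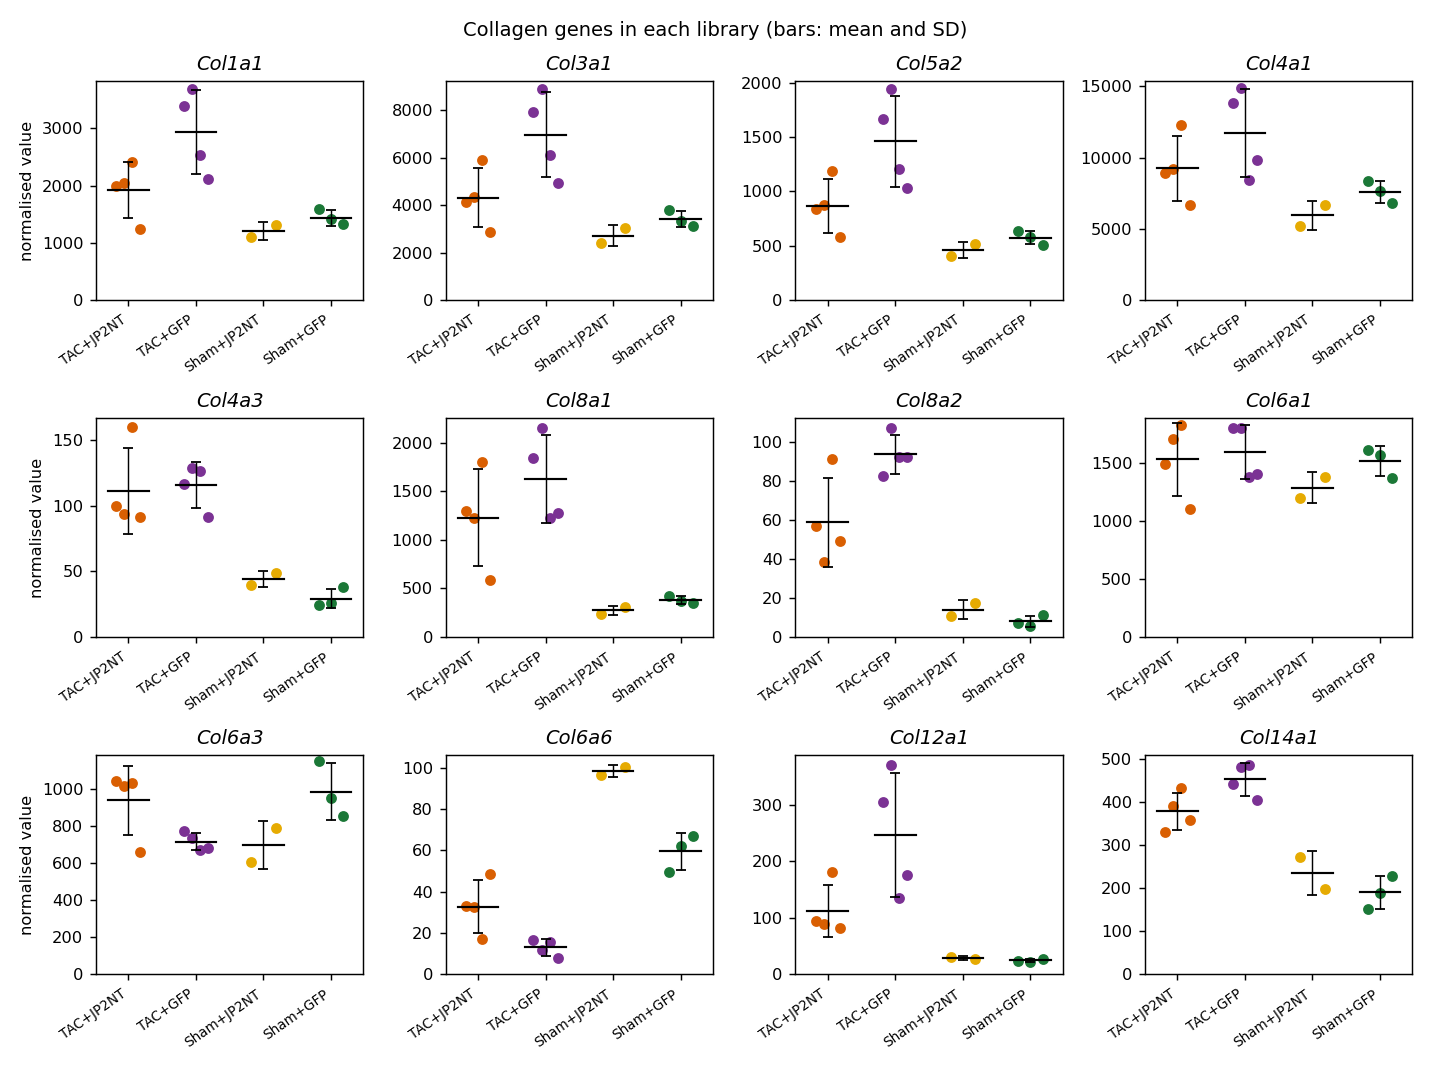
Normalised read counts of 12 collagen genes by sample, on linear axes that start at 0; each point is 1 sample, the horizontal mark is the group mean and the bar its SD, with the TAC groups left of the sham groups. In Col8a1, Col8a2 and Col12a1 every TAC sample lies above every sham sample, and in Col6a6 every TAC sample lies below every sham sample.

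All 5 basement membrane chains called under the control virus were higher, and Col4a6 did not pass (83.3% called, beside 48% of all genes). These genes sit in head-to-head pairs: by the GENCODE M21 annotation the starts of Col4a1 and Col4a2 are 21 bases apart on chromosome 8, those of Col4a3 and Col4a4 72 bases apart on chromosome 1, and those of Col4a5 and Col4a6 1309 bases apart on chromosome X. The sequences below are shown because members of a pair share the promoter region; they are the 250 bases before and 50 bases after the start in RefSeq on GRCm38.p6, in the direction of each gene. The Col4a1 window lies at chr8:11312777-11313076 on the minus strand and that of Col4a2 at chr8:11312555-11312854 on the plus strand, and they share 78 bases. The Col4a4 window lies at chr1:82586800-82587099 on the minus strand. Capitals mark the letters of the CCAAT box, of the GC box (GGGCGG) and of the TATA box (TATAAA), on either strand and with overlapping matches included.
Col4a1: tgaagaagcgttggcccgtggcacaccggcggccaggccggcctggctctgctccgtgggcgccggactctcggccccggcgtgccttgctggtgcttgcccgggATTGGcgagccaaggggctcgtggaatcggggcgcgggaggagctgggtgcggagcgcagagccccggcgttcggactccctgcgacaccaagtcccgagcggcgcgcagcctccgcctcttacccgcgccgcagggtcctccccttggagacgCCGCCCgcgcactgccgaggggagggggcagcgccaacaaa
Col4a2: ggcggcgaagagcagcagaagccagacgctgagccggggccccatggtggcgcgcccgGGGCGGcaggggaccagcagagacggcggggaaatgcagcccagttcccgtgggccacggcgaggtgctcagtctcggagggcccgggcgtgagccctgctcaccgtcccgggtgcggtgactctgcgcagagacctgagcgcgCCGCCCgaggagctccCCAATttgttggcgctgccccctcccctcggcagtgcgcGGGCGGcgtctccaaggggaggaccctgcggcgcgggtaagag
Col4a4: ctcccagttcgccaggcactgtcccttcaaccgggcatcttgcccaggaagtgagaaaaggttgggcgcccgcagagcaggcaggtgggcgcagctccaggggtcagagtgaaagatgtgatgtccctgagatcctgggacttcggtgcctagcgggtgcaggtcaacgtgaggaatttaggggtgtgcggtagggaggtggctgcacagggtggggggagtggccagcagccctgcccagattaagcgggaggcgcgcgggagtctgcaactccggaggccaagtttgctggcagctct
In these letters the Col4a1 window held 1 CCAAT and 1 GC box, the Col4a2 window 1 CCAAT and 3 GC boxes, and the Col4a4 window no match to the 3 motifs. Of 32817 promoters of the same length, 37.4% held a CCAAT box, 35.6% a GC box and 13.6% a TATA box. Of the 35 collagen genes with a promoter entry, 12 (34.3%) held a CCAAT box, 22 (62.9%) a GC box and 5 (14.3%) a TATA box. A match describes letters and is not a measured site.

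Col4a1 (chromosome 8, bases 11198423 to 11312826, minus strand) and Col4a2 encode the chains of the basement membrane network found in nearly all tissues. Col4a1 had 8892, 9171, 12257 and 6665 units in TAC+JP2NT libraries and 13811, 14872, 8449 and 9801 in TAC+GFP libraries. Sham values of Col4a1 were 5194 and 6674 under JP2NT and 8356, 7652 and 6801 under GFP. TAC+GFP replicates 1 and 2 stood highest, and TAC+GFP replicate 3 lay just above the highest Sham+GFP library. Its log2 fold change was 0.59 ± 0.20, adjusted p = 0.0245 under GFP and, just short of the threshold, 0.62 ± 0.23, adjusted p = 0.0509 under JP2NT. Col4a2 had 6165, 6286, 8624 and 5185 units in TAC+JP2NT libraries and 9561, 10135, 6479 and 6716 in TAC+GFP libraries. Sham values of Col4a2 were 4229 and 5119 under JP2NT and 6465, 6154 and 5181 under GFP. The pattern followed that of Col4a1, with a log2 fold change of 0.45 ± 0.18, adjusted p = 0.0465 under GFP and 0.47 ± 0.20, adjusted p = 0.0832 under JP2NT. The Col4a1 call was lost without Sham+GFP replicate 2 (adjusted p = 0.0610) or 3 (0.0948) or TAC+GFP replicate 1 (0.0704) or 2 (0.0764). The Col4a2 call was lost when any of 9 of the 13 samples was left out, with adjusted p of 0.0533 to 0.175, highest without Sham+GFP replicate 3; it held only without TAC+GFP replicate 3 or 4 or TAC+JP2NT replicate 3 or 4.

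Col4a3, Col4a4 and Col4a5 form a separate network best known from the kidney glomerulus, whose loss causes Alport syndrome in humans. Per length Col4a3 and Col4a4 were scarce, whereas Col4a5 averaged 94.8 units per kilobase in TAC+JP2NT libraries, 111 in TAC+GFP libraries, 74.6 in Sham+JP2NT samples and 71 in Sham+GFP libraries. Col4a3 averaged 13 units per kilobase in TAC+JP2NT libraries, 13.6 in TAC+GFP libraries, 5.18 in Sham+JP2NT samples and 3.44 in Sham+GFP libraries. Col4a3 (chromosome 1, bases 82586921 to 82722059, plus strand) had 99.9, 93.7, 159.9 and 91.7 units in TAC+JP2NT libraries and 117, 129, 127 and 91.3 in TAC+GFP libraries. Sham values of Col4a3 were 39.8 and 48.8 under JP2NT and 24.2, 25.9 and 38.1 under GFP. Every TAC library exceeded every sham library of either vector, and the log2 fold change was 1.96 ± 0.21, adjusted p = 6.21e-06 under GFP and 1.28 ± 0.24, adjusted p = 0.0015 under JP2NT. Col4a4 (chromosome 1, bases 82448423 to 82586849, minus strand) had 121, 127, 177 and 88.8 units in TAC+JP2NT libraries and 144, 131, 102 and 115 in TAC+GFP libraries. Sham values of Col4a4 were 61.6 and 59.4 under JP2NT and 44.7, 42.1 and 47.7 under GFP. Its TAC and sham values did not overlap either, with a log2 fold change of 1.42 ± 0.19, adjusted p = 3.19e-05 under GFP and 1.03 ± 0.21, adjusted p = 0.00263 under JP2NT. Col4a5 had 582, 575, 660.1 and 659.9 units in TAC+JP2NT libraries and 763, 847, 630.4 and 661 in TAC+GFP libraries. Sham values of Col4a5 were 479 and 496 under JP2NT and 450.1, 468 and 475 under GFP. Its TAC and sham groups were also separate, by a log2 fold change of 0.63 ± 0.10, adjusted p = 8.90e-05 under GFP and 0.34 ± 0.11, adjusted p = 0.0257 under JP2NT. The Col4a5 call under JP2NT was lost without either Sham+JP2NT sample (adjusted p = 0.155 and 0.104) or without TAC+JP2NT replicate 3 (0.0537). Col4a6, which can join Col4a5 in a further network, averaged 27.1 ± 11 units in TAC+JP2NT libraries, 22.2 ± 6.74 in TAC+GFP libraries, 26.8 ± 2.49 in Sham+JP2NT samples and 14.8 ± 5.75 in Sham+GFP libraries, with an adjusted p of 0.165 in TAC+GFP against Sham+GFP.

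The short-chain network collagens of type VIII, known from the cornea and from remodelling vessel walls, were higher in both tested genes and under both vectors. Beside them, 23.2% of all genes were higher under GFP and 16.1% under JP2NT. The median log2 fold change of the network collagens, 2.73 under GFP and 2.01 under JP2NT, was the highest of the 6 groups of genes. Col8a1 (chromosome 16, bases 57624258 to 57754737, minus strand) had 1301, 1228, 1801 and 582 units in TAC+JP2NT libraries and 1841, 2154, 1226 and 1274 in TAC+GFP libraries. Sham values of Col8a1 were 241 and 309 under JP2NT and 427, 368 and 347 under GFP. No TAC library overlapped the sham libraries, and the log2 fold change was 2.05 ± 0.29, adjusted p = 5.00e-05 under GFP and 2.05 ± 0.33, adjusted p = 0.000452 under JP2NT. Col8a2 (chromosome 4, bases 126286793 to 126314330, plus strand) had 56.7, 38.2, 91 and 49.2 units in TAC+JP2NT libraries and 82.4, 107, 92.3 and 92.2 in TAC+GFP libraries. Sham values of Col8a2 were 10.6 and 17.4 under JP2NT and 7.16, 5.9 and 11.3 under GFP. Its sham values lie near 10 units, where 1 added unit matters, so the fold change on the log2(value + 1) scale understates the difference; it was 3.41 ± 0.28, adjusted p = 6.62e-07 under GFP and 1.96 ± 0.32, adjusted p = 0.00054 under JP2NT. Col10a1, a network collagen of hypertrophic cartilage, was listed at 0 in all but 1 sample.

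The promoters of Col8a2 and Col6a6 are shown as those of the genes with the largest positive and negative fold changes in TAC+GFP against Sham+GFP, with the same 3 motifs in capitals. The windows are chr4:126286544-126286843 on the plus strand for Col8a2 and chr9:105828036-105828335 on the minus strand for Col6a6, whose RefSeq start lies 75 bases from its GENCODE start.
Col8a2: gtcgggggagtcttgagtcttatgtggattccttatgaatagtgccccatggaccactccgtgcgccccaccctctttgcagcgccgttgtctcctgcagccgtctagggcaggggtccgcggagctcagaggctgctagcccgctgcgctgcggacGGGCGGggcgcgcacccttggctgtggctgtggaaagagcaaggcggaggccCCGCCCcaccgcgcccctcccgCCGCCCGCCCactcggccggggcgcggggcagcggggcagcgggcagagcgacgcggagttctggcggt
Col6a6: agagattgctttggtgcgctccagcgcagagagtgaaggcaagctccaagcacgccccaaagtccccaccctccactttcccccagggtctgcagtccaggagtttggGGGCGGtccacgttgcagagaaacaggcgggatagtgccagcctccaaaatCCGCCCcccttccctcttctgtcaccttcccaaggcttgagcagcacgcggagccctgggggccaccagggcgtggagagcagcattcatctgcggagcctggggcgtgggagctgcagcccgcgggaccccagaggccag
Counting overlapping matches separately, 4 GC boxes were found for Col8a2 and 2 for Col6a6, and neither window held a CCAAT or a TATA box.

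Type VI collagen, which forms beaded microfilaments around cells, was the class without any higher call in TAC+GFP against Sham+GFP libraries: 2 of 4 tested chains were lower. That is 50% in either direction, near the 48% of all genes. Col6a1 (chromosome 10, bases 76708792 to 76726168, minus strand), an obligate chain of every type VI molecule, had 1489.7, 1701, 1826 and 1100.0 units in TAC+JP2NT libraries and 1797, 1799, 1375 and 1405 in TAC+GFP libraries. Sham values of Col6a1 were 1194 and 1379 under JP2NT and 1607, 1568 and 1366 under GFP. The groups overlapped, and the log2 fold change was 0.07 (95% interval -0.25 to 0.39) under GFP and 0.23 (-0.13 to 0.59) under JP2NT. Col6a2, the second obligate chain, had 1667 ± 404 units in TAC+JP2NT libraries, 1553 ± 235 in TAC+GFP libraries, 1274 ± 95.9 in Sham+JP2NT samples and 1534 ± 103 in Sham+GFP libraries. Its log2 fold change was 0.01 (95% interval -0.35 to 0.37) under GFP and 0.35 (-0.06 to 0.76) under JP2NT. Col6a3, which completes the usual type VI molecule, had 1046, 1016, 1035 and 659 units in TAC+JP2NT libraries and 773, 737, 672 and 685 in TAC+GFP libraries. Sham values of Col6a3 were 607 and 789.8 under JP2NT and 1154, 949.8 and 856 under GFP. It was lower in TAC+GFP than in Sham+GFP libraries, by -0.45 ± 0.15, adjusted p = 0.0226 on the log2 scale, and this call was lost without Sham+GFP replicate 1 (adjusted p = 0.123). In TAC+JP2NT against Sham+JP2NT its log2 fold change was 0.41 ± 0.17, adjusted p = 0.0786, which did not pass.

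Col6a6 (chromosome 9, bases 105687809 to 105828160, minus strand) encodes an alternative to the Col6a3 chain of type VI collagen and was the collagen gene with the largest decrease. It had 33, 32.5, 16.9 and 48.5 units in TAC+JP2NT libraries and 16.7, 11.7, 15.4 and 8.03 in TAC+GFP libraries. Sham values of Col6a6 were 96.4 and 100.5 under JP2NT and 49.4, 62 and 66.9 under GFP. Every TAC library lay below every sham library, and every TAC+JP2NT library lay above every TAC+GFP library, though the nearest values were 16.9 and 16.7 units. The log2 fold change was -2.15 ± 0.31, adjusted p = 5.65e-05 under GFP and -1.65 ± 0.35, adjusted p = 0.00287 under JP2NT. Chondrocyte and valve markers (4 genes) summed to 71.4 to 113 units in TAC+JP2NT libraries, 64.2 to 85.8 in TAC+GFP libraries, 90.0 to 94.2 in Sham+JP2NT samples and 24.3 to 56.9 in Sham+GFP libraries. Its members differed in direction: in that order of groups Sox9 averaged 43.0, 34.6, 17.5 and 15.3 units and Cnmd 6.78, 4.29, 25.7 and 9.47. Chad averaged 27.4, 27.6, 42.8 and 10.9 units and Acan 8.80, 9.01, 6.14 and 2.32. Of the 3 tested, 1 was higher in TAC+GFP against Sham+GFP, and 1 was higher and 1 lower in TAC+JP2NT against Sham+JP2NT. Fibroblast markers (6 genes) summed to 22105 to 26947, 18732 to 21932, 25468 to 29239 and 20216 to 24740 units in the same order. Of these 6, Dcn (0.42, adjusted p = 0.00128) and Lum (0.36, adjusted p = 0.0194) were higher and Gsn (-0.45, adjusted p = 0.00646) was lower in TAC+GFP against Sham+GFP on the log2 scale; none was called in TAC+JP2NT against TAC+GFP. The part of either cell type in the result was not tested.

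Among FACIT collagens, all 6 tested genes were called under the control virus (100%, beside 48% of all genes), 5 of them higher. One of these 5, Col9a2, passed the filter only through TAC libraries, so its call is partly built into the filter. Col12a1 (chromosome 9, bases 79598991 to 79718831, minus strand), which coats type I fibrils in tissues under load, had 95.2, 89.2, 180.3 and 82.7 units in TAC+JP2NT libraries and 305, 370.4, 136 and 176 in TAC+GFP libraries. Sham values of Col12a1 were 31.4 and 26.5 under JP2NT and 23.9, 21.7 and 27.7 under GFP. All TAC libraries exceeded all sham libraries, TAC+GFP replicates 1 and 2 most of all, and the log2 fold change was 3.18 ± 0.31, adjusted p = 2.93e-06 under GFP and 1.84 ± 0.36, adjusted p = 0.00174 under JP2NT. Col14a1, a relative of Col12a1 that limits fibril growth, had 332, 392, 433 and 359.5 units in TAC+JP2NT libraries and 444, 482, 487 and 404 in TAC+GFP libraries. Sham values of Col14a1 were 272 and 199 under JP2NT and 153, 189 and 229 under GFP. Its log2 fold change was 1.26 ± 0.14, adjusted p = 7.48e-06 under GFP and 0.70 ± 0.16, adjusted p = 0.00478 under JP2NT; without Sham+JP2NT replicate 3 the value under JP2NT was 0.47 (adjusted p = 0.113). Col16a1, a minor fibril-associated collagen, had 154, 169.7, 269 and 144 units in TAC+JP2NT libraries and 266, 312, 248 and 235 in TAC+GFP libraries. Sham values of Col16a1 were 101 and 85.3 under JP2NT and 101, 117 and 104 under GFP. It was separate between TAC and sham under both vectors, with a log2 fold change of 1.29 ± 0.18, adjusted p = 4.30e-05 under GFP and 0.93 ± 0.20, adjusted p = 0.00336 under JP2NT; without Sham+JP2NT replicate 3 the adjusted p under JP2NT was 0.0557.

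The remaining FACIT chains were scarce. Col22a1, which is deposited at tissue junctions such as that between muscle and tendon, had 32.1, 25.9, 47.3 and 36.5 units in TAC+JP2NT libraries and 37.6, 41.8, 22.6 and 52.4 in TAC+GFP libraries. Sham values of Col22a1 were 18.3 and 19.9 under JP2NT and 6.12, 18.8 and 16.3 under GFP. The log2 fold change was 1.49 ± 0.35, adjusted p = 0.00284 under GFP and 0.83 ± 0.40, adjusted p = 0.127 under JP2NT. Col9a2, a chain of the cartilage collagen of type IX, had 12.4, 8.24, 43.5 and 10.8 units in TAC+JP2NT libraries and 24.8, 25.4, 13 and 36.5 in TAC+GFP libraries. Sham values of Col9a2 were 2.35 and 0 under JP2NT and 3.1, 1.17 and 2.65 under GFP. Its sham values were at or below 3.10 units, so the fold changes on the log2(value + 1) scale, 2.94 ± 0.57, adjusted p = 0.000678 under GFP and 3.13 ± 0.64, adjusted p = 0.00254 under JP2NT, depend on the added 1; without Sham+JP2NT replicate 3 the adjusted p under JP2NT was 0.0623. Col20a1 was the only FACIT gene called lower: it averaged 13 ± 5.59 units in TAC+JP2NT libraries, 9.89 ± 3.14 in TAC+GFP libraries, 22.1 ± 5.05 in Sham+JP2NT samples and 25.6 ± 1.76 in Sham+GFP libraries, a log2 fold change of -1.33 ± 0.35, adjusted p = 0.0056 under GFP and -0.80 ± 0.39, adjusted p = 0.135 under JP2NT.

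Of the 5 other collagens tested, Col18a1 was called under GFP and Col15a1 under JP2NT. That is 20% in each comparison, below the 48% of all genes under GFP and the 31.8% under JP2NT. Col18a1 and Col15a1 are multiplexins of the basement membrane zone, and the C-terminal fragment of Col18a1 is endostatin, an inhibitor of vessel growth. Col18a1 had 200.2, 258, 213 and 206 units in TAC+JP2NT libraries and 272, 303, 203 and 251 in TAC+GFP libraries. Sham values of Col18a1 were 177 and 213 under JP2NT and 203, 179 and 179 under GFP. The TAC+GFP libraries lay above the Sham+GFP libraries by a small margin, with a log2 fold change of 0.45 ± 0.13, adjusted p = 0.0115, and TAC+JP2NT overlapped Sham+JP2NT (0.17 ± 0.15, adjusted p = 0.42). Col15a1, whose product stabilises muscle and capillaries, had 2079, 2107, 2524 and 1256 units in TAC+JP2NT libraries and 2404, 2155, 1339.9 and 1643 in TAC+GFP libraries. Sham values of Col15a1 were 1087 and 1302 under JP2NT and 1502, 1402 and 1272 under GFP. The log2 fold change was 0.40 ± 0.21, adjusted p = 0.127 under GFP and 0.70 ± 0.24, adjusted p = 0.0374 under JP2NT; in both pairs 1 TAC library overlapped the sham range. The Col15a1 call under JP2NT was lost without Sham+GFP replicate 2 (adjusted p = 0.0504), either Sham+JP2NT sample (0.241 and 0.0944) or TAC+JP2NT replicate 1 (0.0751), 2 (0.0741) or 3 (0.0851). The transmembrane collagens Col13a1 and Col23a1 and the von Willebrand factor A domain collagen Col28a1 passed in neither overload comparison, with log2 fold changes under GFP of 0.64, 0.49 and 0.70.

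**Figure D3:**
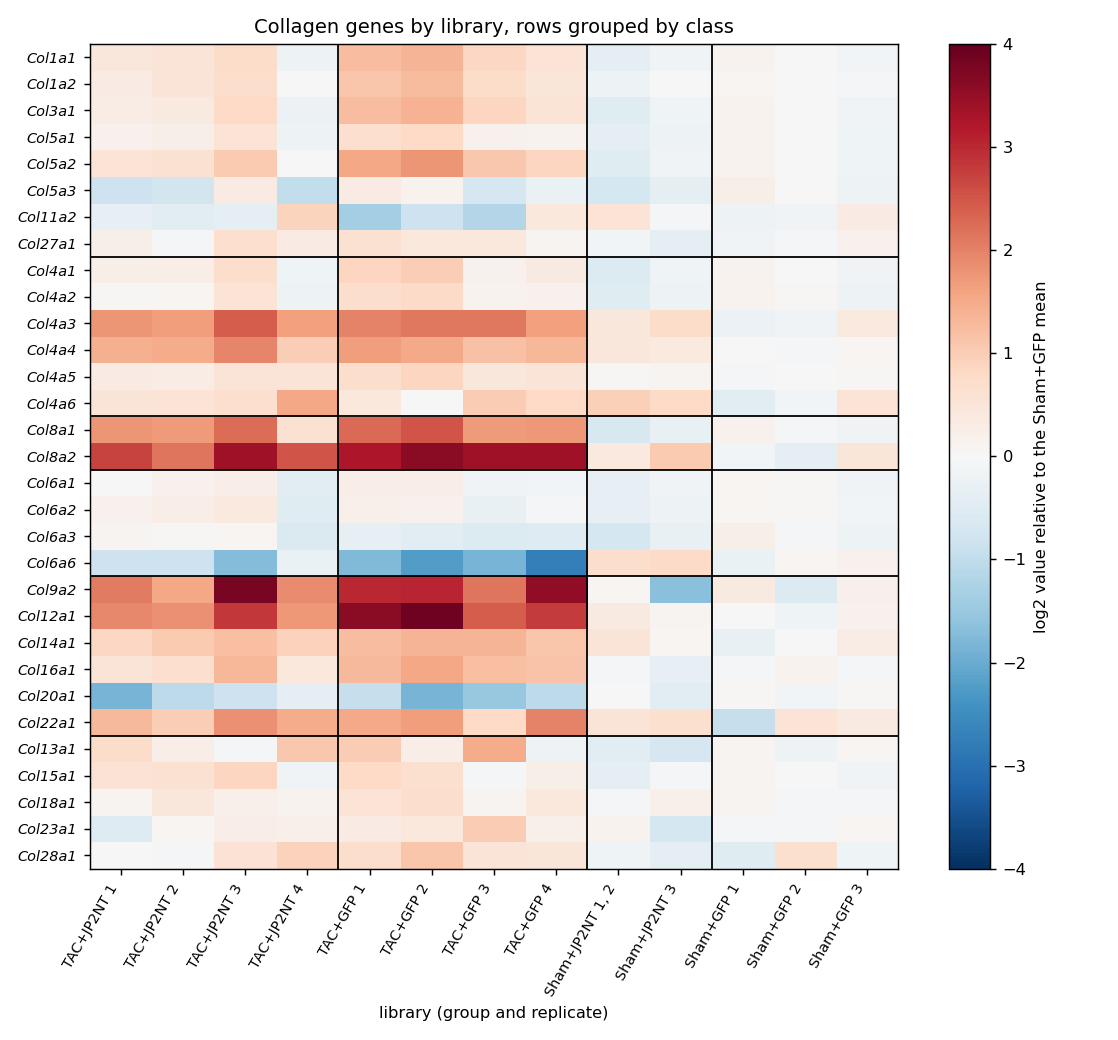
Log2 normalised counts of the 31 tested collagen genes in each of the 13 samples relative to the Sham+GFP mean, with TAC+JP2NT at the left and Sham+GFP at the right and genes grouped by class. Col8a1, Col8a2, Col12a1, Col4a3 and Col9a2 are raised in all 8 TAC samples, and Col6a6 is lowered in all 8. Of these, Col9a2 passed the filter only through TAC libraries, so its difference from sham is partly built into the filter. TAC+JP2NT replicate 4 is the lowest of its group for Col1a1, Col1a2, Col3a1, Col5a2, Col4a1 and Col4a2, and the highest for Col4a6 and Col11a2.

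In overloaded hearts, JP2NT against GFP changed few collagen genes past the threshold. TAC+JP2NT against TAC+GFP gave 1 higher and 3 lower of 31, beside 2.74% of all genes higher and 3.4% lower (6.14% in either direction). The median log2 fold change was -0.26, against 0.00 over all genes. Of the markers of 10 cell types, 4 were called in the same comparison: the pericyte markers Abcc9 (0.57, adjusted p = 0.000734) and Notch3 (0.40, adjusted p = 0.00639) were higher, and the epicardial marker Msln (-0.83, adjusted p = 0.021) and the endothelial marker Egfl7 (-0.43, adjusted p = 0.00912) were lower. These were 2 of 5 pericyte, 1 of 4 epicardial and 1 of 5 endothelial markers tested. The endothelial markers differed in direction. Kdr, which was not called, averaged 2335 units in TAC+JP2NT libraries and 1990 in TAC+GFP libraries, whereas the means of Pecam1, Cdh5 and Tie1 moved as Egfl7 did. Under the control virus, overload gave 1 higher endothelial call, Egfl7, and 3 lower ones. The part of the called markers in the collagen values was not tested. Because this comparison and that of TAC+GFP with Sham+GFP share the TAC+GFP libraries, they are not independent, and their values are only given side by side. The 3 lower genes were Col12a1 (-1.10 ± 0.29, adjusted p = 0.0388), Col5a2 (-0.75 ± 0.20, adjusted p = 0.0423) and Col3a1 (-0.70 ± 0.20, adjusted p = 0.0489), and the higher one was Col6a6 (1.23 ± 0.28, adjusted p = 0.0216). Among all 31 genes, Col6a6 was the one with no overlap between the groups (over all tested genes 5.24% lay wholly above and 5.41% wholly below), at 16.9 to 48.5 units in TAC+JP2NT libraries and 8.03 to 16.7 in TAC+GFP libraries. Col12a1 lay between 82.7 and 180 units in TAC+JP2NT and between 136 and 370 in TAC+GFP libraries, Col5a2 between 582 and 1185 and between 1035 and 1938, and Col3a1 between 2877 and 5898 and between 4921 and 8895, each with overlap. Col1a1 and Col1a2 had log2 fold changes of -0.62 ± 0.19, adjusted p = 0.0656 and -0.51 ± 0.16, adjusted p = 0.073, which did not pass.

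These 4 calls were not steady. Each was lost in more than 1 refit with a sample left out: Col12a1 in 10 of 13 (adjusted p of 0.0528 to 0.132), Col5a2 in 10 (0.0552 to 0.142), Col3a1 in 11 (0.0526 to 0.160) and Col6a6 in 3 (0.0508 to 0.0663), with no sign reversed. Without TAC+GFP replicate 2, TAC+JP2NT replicate 1 or TAC+JP2NT replicate 2, no collagen gene was called, whereas 9 were without TAC+JP2NT replicate 3, 7 without TAC+GFP replicate 4, and 1 without any single sham sample or without TAC+GFP replicate 1. The count was 2 without TAC+JP2NT replicate 4. With only the 8 TAC libraries in the fit none was called either, and the adjusted p-values were 0.113 for Col12a1, 0.118 for Col5a2, 0.129 for Col3a1 and 0.0983 for Col6a6.

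Within the sham groups, no collagen gene passed in Sham+JP2NT against Sham+GFP (limma), as no gene did over the whole table (0%), and 4 collagen genes and 581 of all genes had an unadjusted p under 0.05. The median log2 fold change of the 31 genes was -0.23, against -0.01 over all genes. It was -0.26 in TAC+JP2NT against TAC+GFP, and the median interaction of surgery and vector was -0.06, against 0.01 over all genes. The 4 were Col6a3, at -0.50 on the log2 scale (unadjusted p = 0.0146), Col4a3, at 0.60 (0.0330), Col4a6, at 0.88 (0.0396), and Col8a2, at 0.72 (0.0484); they were named after their values were seen. The direct test of whether the overload effect differed between the vectors, the interaction of surgery and vector, likewise gave no collagen gene (limma), beside 0.0755% of all genes (10 of 13246, 0.0377% higher and 0.0377% lower), with 4 collagen genes and 1507 of all genes at an unadjusted p under 0.05. These were Col6a3, at 0.86 ± 0.23 (SE; adjusted p = 0.156), Col8a2, at -1.45 ± 0.43 (0.206), Col12a1, at -1.34 ± 0.48 (0.298), and Col14a1, at -0.57 ± 0.21 (0.323). A collagen gene called under GFP and not under JP2NT, such as Col1a2 or Col20a1, is therefore not shown to respond differently. Without TAC+JP2NT replicate 4, 1 collagen gene passed in the interaction.

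Ratios of 2 chains within a library, which do not depend on the scaling between libraries, were compared over 16 pairs and 3 comparisons, 48 exact two-sided permutation tests in all. None passed after adjustment over the 48 (lowest adjusted p = 0.125), and 4 against 3 samples cannot go below 0.0286. With such floors, an adjusted p under 0.05 would need most of the 48 tests to reach their smallest p at once. No conclusion is therefore drawn from the lack of passing ratios. The log2 ratio of Col3a1 to Col1a1 was 1.24 ± 0.027 in TAC+GFP and 1.24 ± 0.0066 in Sham+GFP libraries (SD, n = 4 and 3), a difference of 0.0036 (exact p = 0.80). The log2 ratio of Col6a1 to Col1a1 was -0.31 ± 0.12 in TAC+JP2NT libraries, -0.86 ± 0.19 in TAC+GFP libraries, 0.09 ± 0.04 in Sham+JP2NT samples and 0.07 ± 0.08 in Sham+GFP libraries. No library of TAC+GFP overlapped either TAC+JP2NT or Sham+GFP in this ratio, and both differences, 0.55 for TAC+JP2NT against TAC+GFP and -0.93 for TAC+GFP against Sham+GFP, reached the smallest exact p the design allows, 0.0286, and an adjusted p of 0.125. The ratio of Col15a1 to Col1a1 was the tightest within TAC+JP2NT libraries, at 0.05 ± 0.02 on the log2 scale, against -0.64 ± 0.25 in TAC+GFP libraries (difference 0.69, exact p = 0.0286, adjusted p = 0.125). In TAC+GFP against Sham+GFP the log2 ratio of Col5a2 to Col1a1 differed by 0.31 and that of Col5a1 to Col1a1 by -0.54 (exact p = 0.0286 and adjusted p = 0.125 for each). Of the 16 ratios, 7 had an exact p under 0.05 in TAC+GFP against Sham+GFP, 4 in TAC+JP2NT against TAC+GFP and none in TAC+JP2NT against Sham+JP2NT, where 4 against 2 samples cannot go below 0.0667.

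**Figure D4:**
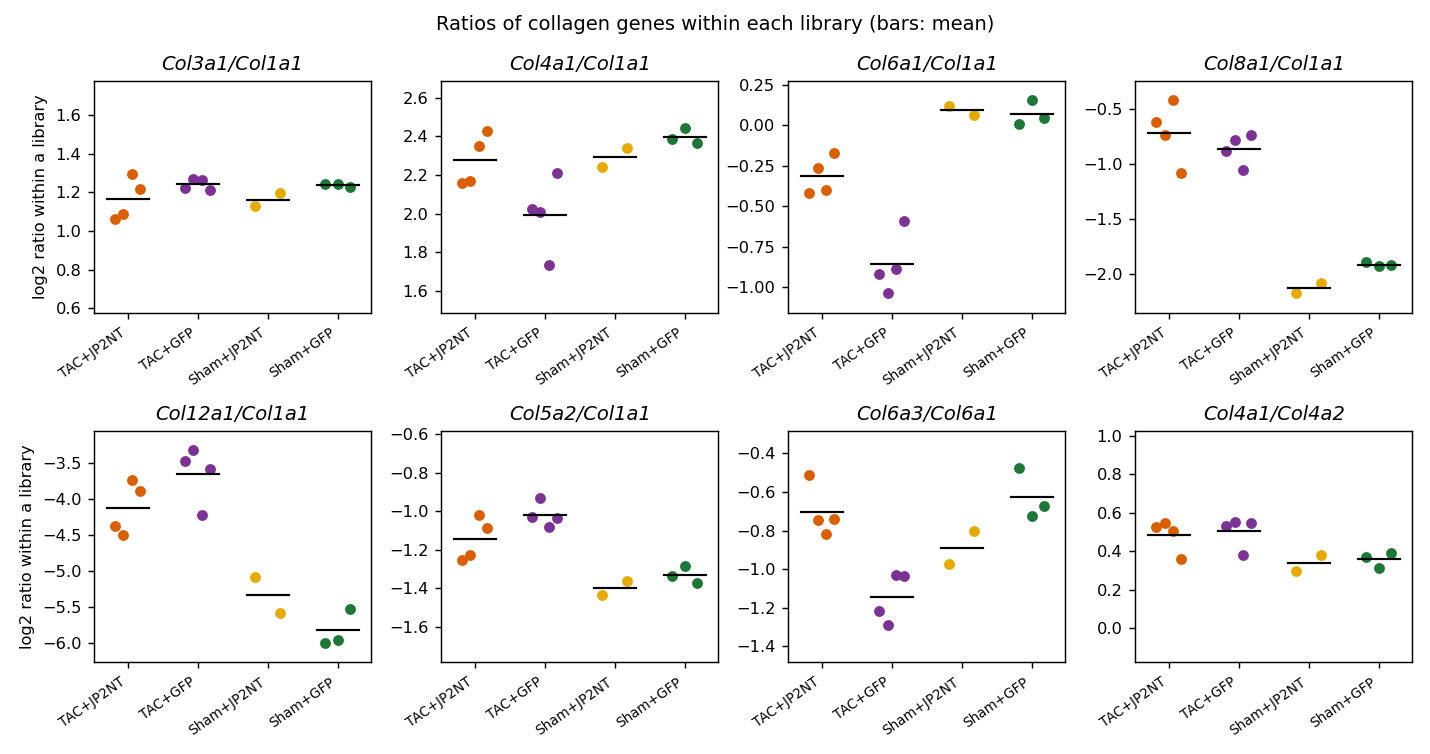
Log2 ratios of 8 pairs of collagen chains within each sample; points are samples, horizontal marks are group means, and the TAC groups stand left of the sham groups. The Col6a1 to Col1a1 ratio is lowest in TAC+GFP samples, with a mean of -0.86, and the Col3a1 to Col1a1 ratio averages 1.24 in both TAC+GFP and Sham+GFP samples.

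The collagen genes also varied more between TAC libraries than between sham libraries. The median SD of log2 values over the 31 genes was 0.41 in TAC+JP2NT libraries, 0.36 in TAC+GFP libraries, 0.19 in Sham+JP2NT samples and 0.15 in Sham+GFP samples, against 0.18, 0.16, 0.08 and 0.11 over all genes. Within TAC+JP2NT, replicate 3 held the highest value of 23 of the 31 genes and replicate 4 the lowest of 17. Within TAC+GFP, replicates 1 and 2 held the highest value of 8 and 16 genes, and replicates 3 and 4 the lowest of 14 and 13. Summed per length, collagen ranged from 4325 to 7831 units in TAC+JP2NT libraries, 6229 to 9575 in TAC+GFP libraries, 3627 to 4346 in Sham+JP2NT samples and 4407 to 5261 in Sham+GFP libraries. Atrial markers (3 genes) ranged from 993 to 10236 units in TAC+JP2NT libraries, 1311 to 4929 in TAC+GFP libraries, 3614 to 5903 in Sham+JP2NT samples and 418 to 3245 in Sham+GFP libraries. Epicardial markers (4 genes) ranged from 194 to 306, 287 to 456, 152 to 155 and 147 to 165 units in the same order, and 3 of the 4 epicardial markers were higher in TAC+GFP than in Sham+GFP. The part of either tissue in the collagen values was not tested.

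Other genes of collagen biosynthesis and binding were followed in 5 lists of 47 genes, of which 44 were tested. In TAC+GFP against Sham+GFP, 21 were higher and 7 lower (63.6% in either direction, beside 48% of all genes). In TAC+JP2NT against Sham+JP2NT, 9 were higher and 3 lower, 27.3% in either direction, which is below the 31.8% of all genes. In TAC+JP2NT against TAC+GFP, 2 were higher and 8 lower (22.7%, beside 6.14% of all genes). The shares over all genes in each direction are those given above. Among the enzymes that hydroxylate prolines and lysines, 5 of 14 tested were higher and 2 lower in TAC+GFP against Sham+GFP. That is 50% in either direction, near the 48% of all genes. P3h2, a prolyl 3-hydroxylase of basement membrane collagen, had 100.1, 100.2, 158 and 124 units in TAC+JP2NT libraries and 219, 205, 205 and 158 in TAC+GFP libraries. Sham values of P3h2 were 72.4 and 66.4 under JP2NT and 65.8, 64 and 64 under GFP. Its log2 fold change was 1.58 ± 0.16, adjusted p = 3.01e-06 in TAC+GFP against Sham+GFP and -0.72 ± 0.15, adjusted p = 0.0116 in TAC+JP2NT against TAC+GFP. P3h4, a component of the lysyl hydroxylation complex, was lower (-0.95 ± 0.14, adjusted p = 8.52e-05), and P3h3, its partner, was higher (0.82 ± 0.15, adjusted p = 0.000499).

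Of the 6 folding and secretion genes, Fkbp14 was higher (0.66 ± 0.09, adjusted p = 3.37e-05) and Fkbp10 and Serpinh1 were lower (-0.49 ± 0.11, adjusted p = 0.0025 and -0.41 ± 0.14, adjusted p = 0.0281) in TAC+GFP against Sham+GFP. These calls are 50% of the list in either direction, near the 48% of all genes. The Serpinh1 call was lost without Sham+GFP replicate 1 (adjusted p = 0.119) or 2 (0.0885) or TAC+GFP replicate 3 (0.0722). Serpinh1 encodes HSP47, the chaperone of the collagen triple helix, and Fkbp10 and Fkbp14 encode prolyl isomerases of the endoplasmic reticulum. Of 7 tested propeptide cleavage genes, 5 were higher and none lower (71.4% in either direction). The largest changes there were in Tll1, a tolloid-like C-propeptide protease with few reads (1.97 ± 0.47, adjusted p = 0.00317), Adamts2, the main N-propeptide protease of fibrillar collagens (0.94 ± 0.16, adjusted p = 0.000315), and Pcolce2, an enhancer of C-propeptide cleavage (0.74 ± 0.10, adjusted p = 4.50e-05). Tll1 had 12.5, 27.8, 14.4 and 11.2 units in TAC+GFP libraries, at most 9.28 in TAC+JP2NT libraries and at most 3.98 in sham samples. It passed the filter only through TAC+GFP libraries, so its difference from sham is partly built into the filter. Tll1 is counted among the 5 higher genes here and in the total over all lists. Of 9 tested receptors and uptake genes, 5 were higher and 1 lower (66.7% in either direction), led by Itga11, a collagen-binding integrin of fibroblasts (1.00 ± 0.16, adjusted p = 0.000181), Itga1 (0.79 ± 0.22, adjusted p = 0.00777) and the collagen uptake receptor Mrc2 (0.60 ± 0.12, adjusted p = 0.00086). Of 8 fibril-associated regulators, 5 were higher and 2 lower (87.5% in either direction). Fmod, a small proteoglycan that binds fibrils (2.18 ± 0.35, adjusted p = 0.000146), Bgn, another (1.5 ± 0.18, adjusted p = 1.42e-05), and Sparc, a matricellular collagen-binding protein (0.95 ± 0.15, adjusted p = 0.000156), changed most.

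The 10 genes of these lists called in TAC+JP2NT against TAC+GFP were, beside P3h2, the disulfide isomerase and prolyl 4-hydroxylase subunit P4hb (-0.31 ± 0.05, adjusted p = 0.00626), the peptidyl-prolyl isomerase Ppib (-0.22 ± 0.06, adjusted p = 0.042), Adamts2 (-0.60 ± 0.15, adjusted p = 0.0328), Pcolce2 (-0.34 ± 0.09, adjusted p = 0.0499), Itga11 (-0.54 ± 0.15, adjusted p = 0.0479), its partner subunit Itgb1 (-0.25 ± 0.07, adjusted p = 0.0393) and Sparc (-0.58 ± 0.14, adjusted p = 0.027), all lower. The collagen receptor kinase Ddr2 (0.40 ± 0.07, adjusted p = 0.0079) and the matrix protein tenascin-X, Tnxb (0.48 ± 0.09, adjusted p = 0.00707), were higher. With samples left out in turn, the calls of Ddr2, Tnxb, P3h2 and P4hb held in all 13 refits. That of Sparc was lost without TAC+GFP replicate 1 (adjusted p = 0.078) or 2 (0.0939). Adamts2 was lost in 6 refits (0.051 to 0.107), Itga11 in 10 (0.0508 to 0.159), Itgb1 in 10 (0.0559 to 0.135), Pcolce2 in 11 (0.0548 to 0.148) and Ppib in 11 (0.0553 to 0.128). With only the 8 TAC libraries in the fit, Ddr2 and Tnxb were still called, and P3h2 (adjusted p = 0.0568) and P4hb (0.0523) were not. P4hb had 4116, 4127, 4366 and 4084 units in TAC+JP2NT libraries and 5441, 5489, 4974 and 4840.4 in TAC+GFP libraries. Sham values of P4hb were 4009.9 and 4077 under JP2NT and 4011, 3989.8 and 4057 under GFP. The TAC+GFP libraries stood above all others, and those of TAC+JP2NT lay just above both sham groups. Sparc had 10144, 10013, 10530 and 6310.2 units in TAC+JP2NT libraries and 14592, 15761, 11641 and 12602 in TAC+GFP libraries. Sham values of Sparc were 5824 and 6431 under JP2NT and 7592, 6933 and 6613 under GFP. All 4 TAC+JP2NT libraries lay below all 4 TAC+GFP libraries. Tnxb had 1126, 1072, 1199 and 1444 units in TAC+JP2NT libraries and 950.1, 776, 820.0 and 906 in TAC+GFP libraries. Sham values of Tnxb were 1484 and 1379 under JP2NT and 1433, 1388 and 1394 under GFP. All TAC+JP2NT libraries lay above all TAC+GFP libraries.

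The 13 collagen genes that were not tested were scarce in every group. They were Col2a1, Col11a1 and Col24a1 among fibrillar chains, Col10a1, Col6a4, Col6a5, the FACIT chains Col9a1, Col9a3 and Col19a1, and Col7a1, Col17a1, Col25a1 and Col26a1. Col2a1, the main collagen of cartilage, had 0, 2.77, 0 and 0.992 units in TAC+JP2NT libraries, 6.97, 13.4, 31.6 and 3.91 in TAC+GFP libraries, 0.581 and 0 in Sham+JP2NT samples and 0 in all 3 Sham+GFP libraries; it was named after its values were seen. Col6a4 was above 0 in 1 sample and Col19a1 in the TAC+JP2NT and Sham+JP2NT groups alone, at most 1.44 units. At this depth, values of 1 or 2 reads do not separate groups.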

How the data were processed

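Stranded paired-end libraries were made from polyadenylated RNA of mouse ventricles. Per the submitters' processing notes, FastQC 1.0.0, STAR 2.6.1a and Salmon were used with build mm10; whether counting used strand, and with which annotation, is not given in the sources used here. Each deposited value is a signal, a gene count that the authors divided by scale factors: median-of-ratios factors are equal within the 7 GFP and within the 7 JP2NT libraries, so each set was scaled on its own. Only 1.17 to 2.27% of values came within 0.001 of a whole number of reads, so no count model was used. Intervals cover the spread between libraries only.

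Values of all libraries were rescaled jointly by unweighted trimmed means of M-values (30% of ratios and 5% of levels trimmed), 1 was added and log2 taken. Genes of at least 10 in at least 3 libraries were tested with limma-trend (limma 3.58.1, R 4.3.3) fitting group means with 1 common spread (9 residual and 5.72 prior degrees of freedom), two-sided, with Benjamini-Hochberg adjustment at 0.05 in each of 5 comparisons. This method was run on simulated counts with the same spread in every group and with all libraries kept separate. That run does not cover the larger spread of the TAC libraries. Since TAC libraries vary more than sham libraries, a shared spread is too small for them. Sham+JP2NT replicates 1 and 2 were averaged; over genes of at least 2000 reads their observed over counting variance was 1.45, where the other 17 pairs had 5.481 to 67.39. Chain ratios were compared with exact permutation tests (scipy 1.17.1).

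The collagen genes, the other gene lists and the tests were chosen with earlier results of these data known. Values per library are given for 11 abundant or much studied collagens, for up to 3 members of each class with the largest change in TAC+GFP against Sham+GFP and for every member called elsewhere; of the other lists, up to 3 with the largest change and all called in TAC+JP2NT against TAC+GFP. Lengths and coordinates come from GENCODE M21 and promoters from RefSeq on GRCm38.p6, both on the mm10 assembly; 35 of 44 members had a promoter entry. Marker lists of 10 cell types were summed, of which cardiomyocyte, fibroblast, atrial, epicardial and chondrocyte or valve markers stand beside results. Endothelial markers (5) summed to 8825 to 9996 in TAC+JP2NT, 9204 to 10806 in TAC+GFP, 10855 to 11515 in Sham+JP2NT and 11505 to 12068 in Sham+GFP libraries. Pericyte markers (5) summed to 11477 to 14200, 8999 to 10779, 14859 to 15747 and 14211 to 15205 in the same order. Smooth muscle (4), macrophage (5) and Schwann cell (3) markers averaged 2101, 2294 and 55.7 in TAC+JP2NT, 2071, 2354 and 44.8 in TAC+GFP, 3092, 2231 and 114 in Sham+JP2NT and 3443, 2305 and 103 in Sham+GFP libraries. Same-numbered libraries did not deviate together (correlations of -0.17 to 0.07), so replicate numbers were not used as a block except as an alternative. The other alternatives changed the scaling, filter, pseudocount, spread, samples in the fit or the averaging, or left out each sample in turn.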

Additional observations from a re-analysis of the deposited data

Results flagged for a closer look

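Within the groups of 4 libraries, 4 of 62 sets of values had 1 library that stood farther from the rest than Dixon's 95% limit; chance alone flags about 1 in 20. All 4 were in TAC+JP2NT. Col11a2 was high in replicate 4, at 36.68 units, where the other libraries had 14.02 to 15.16. Col4a6 was high in the same library, at 43.55, beside 20.58 to 23.27. Col6a3 was low there, at 659.3, beside 1016 to 1046, so its TAC+JP2NT mean of 939 ± 187 units (SD, n = 4) rests in part on that library. Col4a3 was high in replicate 3, at 159.9, beside 91.7 to 99.92.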

How the results depend on the processing

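The collagen results of TAC+GFP against Sham+GFP were the steadiest: 17 of the 21 called genes stayed called under every alternative run for them, and the count stayed within 18 to 23 with samples left out. In TAC+JP2NT against TAC+GFP none of the 4 calls did. They became 8 with values as deposited, 2 with no filter, 1 with a spread per group or a constant prior variance, and 0 with only the groups compared or with replicates 1 and 2 of the TAC groups averaged as well; with samples left out the count ranged from 0 to 9. Joint median-of-ratios scaling ended the call of Col3a1 (adjusted p = 0.0505). The 10 calls among the other genes of collagen biosynthesis became 18 with values as deposited, 6 with a spread per group, 2 with only the groups compared, 5 with a constant prior variance and 2 with the TAC pairs averaged, and 4 to 12 with samples left out. In TAC+JP2NT against Sham+JP2NT the 13 calls became 20 with a spread per group and 21 with 14 separate libraries, and 7 (without Sham+JP2NT replicate 3) to 22 (without TAC+JP2NT replicate 4) with samples left out; the other genes of biosynthesis, 12 in the fit reported, ranged from 6 to 17. Chain ratios with an exact p under 0.05 in that comparison became 5 with 14 separate libraries, and those in TAC+JP2NT against TAC+GFP ranged from 2 to 5 with samples left out. The interaction had 1 call with 14 separate libraries and 0 to 1 with samples left out. The causes of these shifts were not tested. No fold change of a called collagen gene changed sign under any alternative. Genes near 10 units, such as Col8a2, Col9a2 and Col20a1, are limited by depth.

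Replicate numbers did not pair the libraries: 1 of 14 libraries correlated best with its own number. With the replicate number as a block, on 14 separate libraries, the collagen calls were 23 in TAC+JP2NT against Sham+JP2NT, 7 in TAC+JP2NT against TAC+GFP and 1 in the interaction, and the calls among the other genes of biosynthesis were 20 in TAC+JP2NT against Sham+JP2NT and 1 in the interaction.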
